A study of Mus musculus with 57 samples.

Results

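The cytochrome P450 genes described here are the rows of the deposited count table whose symbol begins with Cyp and a digit, leaving out Cyp51, Cyp46a1 and pseudogene symbols that contain -ps. Of 36 rows with Cyp and a digit, 3 were left out, and 33 of the table's 21118 genes remained. The annotation lists 32 of them as protein-coding. The other one, Cyp4x1os, is an antisense transcript that shares 450 exon bases with Cyp4x1 on the opposite strand and encodes no P450. All 33 passed the filter on low counts, which removed 0 genes from the whole table, and 21 of them averaged at least 1 CPM (counts scaled to library size by the TMM method) at one or more ages. As deposited, every row of the count table already held at least 50 counts in all and a count in at least 6 libraries. P450 genes without a row are not covered.

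Cytochrome P450s are heme enzymes that insert an oxygen atom into sterols, steroids, retinoids, fatty acids and drugs. Most sit in the endoplasmic reticulum and take electrons from NADPH through P450 oxidoreductase or cytochrome b5, and a few sit in mitochondria and take them through ferredoxin. In brain they are known for oxysterol and neurosteroid metabolism, for clearing retinoic acid, and for the epoxidation and hydroxylation of arachidonic acid and its products, and astrocytes are one of the cell types that express them.

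The RNA came from the cerebral cortex of Aldh1l1-L10-GFP mice on a C57BL/6 background, in which a ribosomal protein fused to GFP is carried under Aldh1l1, a gene of astrocytes and their precursors. All groups carry this tag. Ribosomes bearing it were immunoprecipitated with an antibody to GFP (translating ribosome affinity purification), so the levels are of ribosome-bound messages, and no whole-cortex fraction was analysed here. The 53 libraries, each from 1 animal, comprised 4 females and 4 males at P1 (postnatal day 1), 4 and 4 at P4, 8 and 4 at P7, 5 and 5 at P14, 3 and 3 at P35, and 4 females and 5 males labelled adult with no day given. The animals' names also carry a number whose first digit groups them into sets 1, 2, 3, 4 and 6, with 10, 8, 12, 11 and 8 libraries, and 4 animals at P7 carry the letter S. The sources used here do not say what this number stands for. The titles of the S animals' libraries are numbered in a series of their own, which otherwise holds the second sequencing of 4 other P7 animals. Set S therefore cannot be told apart from that sequencing, and whether the table's column of each animal sequenced more than once holds 1 run or both is not given in the sources used here.

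Total counts per library ran between 14768178 and 48541139 with a median of 24033399, and between 9 and 32 members had a count in a library. The 4 highest totals, from 42222297 upward, were those of the 4 P7 animals sequenced a second time. The next highest was 32140380, in adult male 60. Every member of a list of 20 mature astrocyte genes was measured, and the list summed to between 786 and 27739 CPM per library. A list of 18 neuronal genes was also present, at 1790 to 13146 CPM. The library of P1 female 4 stood apart, with 10085 genes at 10 or more counts, the fewest of all, and 9 members with a count. Its Slc1a3 level, an astroglial glutamate transporter, was 1.41 CPM, against 53.6 CPM in the next lowest library. The labelled sex of 6 libraries went against their sex-linked transcripts, which bears on the comparison of the sexes.

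The main question of the design, how astroglial messages change over postnatal life, was addressed with 1 model of all 53 libraries that held the 12 groups of sex and age and the replicate set. Over the 6 ages, 14 of the 33 members differed (edgeR quasi-likelihood test, Benjamini-Hochberg adjusted over all genes at 0.05), or 42.4% of them, against 43.5% of all genes. Between adults and P1, 15 members differed, or 45.5%, against 41.3% of all genes. Of these, 12 were higher in adults, or 36.4% of the members against 21.8% of all genes, and 3 were lower, or 9.09% against 19.5%. The median adult minus P1 difference was 0.76 on the log2 scale over the members and 0.06 over all genes. The share of P450 genes that changed was thus close to the share of all genes, and their calls lay mostly on the adult side. In only 2 members did the adult and P1 libraries not overlap, both higher in adults, which is 6.06% of the members against 3.58% of all genes on that side, 2.69% on the other and 6.26% on either.

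**Figure D1:**
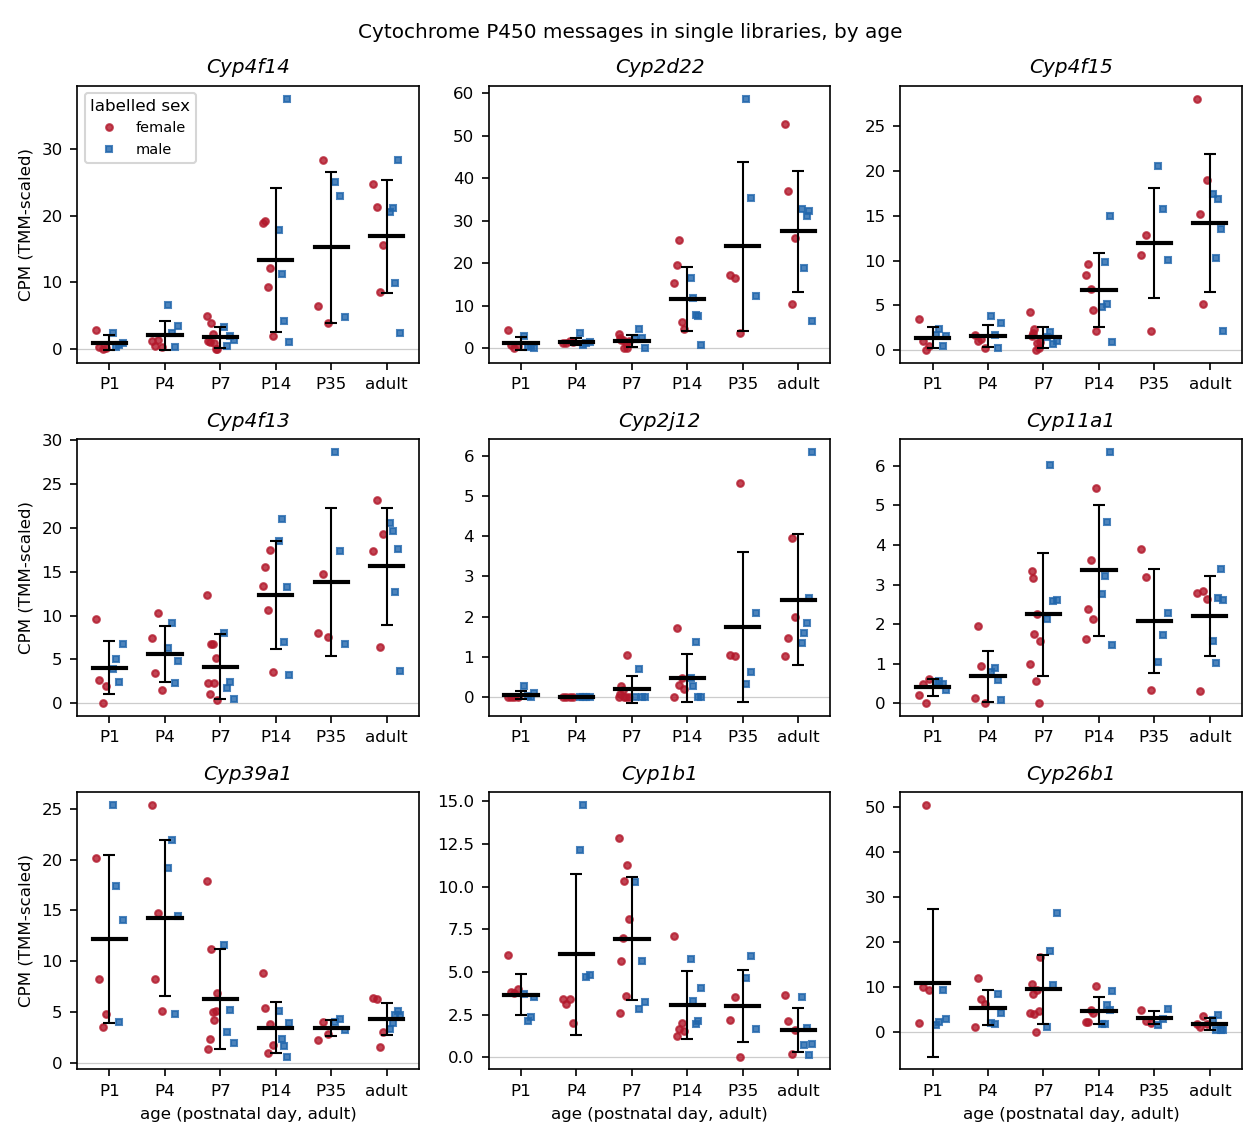
Level of 9 P450 messages in each library (vertical axis, TMM-scaled CPM) by age (horizontal axis), with circles for animals labelled female, squares for animals labelled male, and the mean ± SD of each age as a bar with whiskers. The 3 Cyp4f genes and Cyp2d22 were low through P7 and higher at P14, P35 and in adults, while Cyp39a1 was highest at P1 and P4 and the high Cyp26b1 point at P1 is P1 female 4. These levels are not adjusted for replicate set, and the sets are spread unevenly over the ages. At P7, sets 3, 6 and S gave 2, 2 and 4 of 12 libraries. At P14, sets 3 and 6 gave 2 each of 10 libraries, and set S gave 0. With the set in the model, none of these genes passed in P14 minus P7.

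The Cyp4f subfamily, which holds hydroxylases of leukotrienes, prostaglandins and long-chain fatty acids, had 6 measured members, and 3 of them were higher in adults. Cyp4f14 had a median of 0.388 CPM at P1 (0 to 2.87), 1.24 CPM at P4 (0.298 to 6.60), 1.25 CPM at P7 (0 to 4.85), 11.6 CPM at P14 (1.01 to 37.6), 14.7 CPM at P35 (3.83 to 28.3) and 20.6 CPM in adults (2.33 to 28.4), with the lowest and highest library in parentheses. All but one adult library lay above every P1 library, the exception being adult male 60 of set 6 at 2.33 CPM. The mean was 16.9 ± 8.49 CPM in adults and 0.910 ± 1.11 CPM at P1 (SD, n = 9 and 8). The difference was 4.57 ± 0.55 on the log2 scale, with an adjusted p of 8.58e-09 by edgeR's quasi-likelihood test. That test is also behind each adjusted p that follows. After each log2 difference, ± gives an approximate SE, back-calculated from the F statistic of that test. Over the 6 ages Cyp4f14 had the smallest adjusted p of the members, 1.58e-09.

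Cyp4f15 had a median of 1.33 CPM at P1 (0 to 3.52), 1.46 CPM at P4 (0.186 to 3.77), 1.24 CPM at P7 (0 to 4.30), 5.99 CPM at P14 (0.862 to 14.9), 11.7 CPM at P35 (2.14 to 20.5) and 15.2 CPM in adults (2.10 to 28.1). It averaged 14.2 ± 7.73 CPM in adults and 1.37 ± 1.16 CPM at P1 and was 3.36 ± 0.56 higher in adults on the log2 scale (adjusted p = 4.51e-06). Adult male 60, at 2.10 CPM, again lay among the P1 libraries. Cyp4f13 started from a higher level, with a median of 3.27 CPM at P1 (0 to 9.62), 5.53 CPM at P4 (1.54 to 10.2), 2.34 CPM at P7 (0.431 to 12.4), 13.3 CPM at P14 (3.19 to 21.0), 11.3 CPM at P35 (6.73 to 28.7) and 17.6 CPM in adults (3.67 to 23.1). Its adult and P1 libraries overlapped more, and its difference was smaller, 1.79 ± 0.43 on the log2 scale (adjusted p = 0.000787). The remaining Cyp4f genes did not pass. Cyp4f16 averaged 9.13 ± 4.49 CPM in adults and 9.22 ± 5.49 CPM at P1, with a difference of -0.18 ± 0.32 (adjusted p = 0.675), and Cyp4f17 averaged 1.01 ± 0.424 CPM in adults and 0.549 ± 0.308 CPM at P1, with 0.76 ± 0.68 (adjusted p = 0.392). Cyp4f37 stayed under 1 CPM at every age, with a mean of 0.274 ± 0.180 CPM in adults and 0.228 ± 0.160 CPM at P1. Cyp4f16 and Cyp4f37 are uncertain, because they share 544 stretches of 50 identical bases, and counting could split reads between them.

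These 6 genes stand in 1 cluster on chromosome 17 (GRCm38, GENCODE annotation). Along it, Cyp4f15 (32685627 to 32703352, plus strand), Cyp4f14 (32905070 to 32917342, minus strand) and Cyp4f13 (32924688 to 32947402, minus strand) follow each other, and they are the 3 that were higher in adults. The 3 that did not pass, Cyp4f17, Cyp4f16 and Cyp4f37, lie together on the other side of Cyp4f40, which has no row in the count table. Measured from the start of Cyp4f39, the first gene of the cluster, Cyp4f37 starts at 168.6 kb, Cyp4f15 at 232.9 kb and Cyp4f14 at 452.3 kb. Cyp4f15 thus lies nearer to Cyp4f37, which did not pass, than to Cyp4f14. The promoters of the 3 genes that were higher in adults are printed beside those of Cyp4f16 and Cyp4f37, so that their letters can be compared. Each is a 300-base window around the first annotated start of the gene from RefSeq on GRCm38.p6, written 5′ to 3′ along the gene's own strand, at chr17:32685409-32685708 on the plus strand for Cyp4f15, chr17:32917307-32917606 on the minus strand for Cyp4f14, chr17:32947312-32947611 on the minus strand for Cyp4f13, chr17:32536307-32536606 on the plus strand for Cyp4f16 and chr17:32621069-32621368 on the plus strand for Cyp4f37. Capitals mark the letters TTGGC, the core letters bound by nuclear factor I, a family of factors known in glial development, on either strand.
Cyp4f15: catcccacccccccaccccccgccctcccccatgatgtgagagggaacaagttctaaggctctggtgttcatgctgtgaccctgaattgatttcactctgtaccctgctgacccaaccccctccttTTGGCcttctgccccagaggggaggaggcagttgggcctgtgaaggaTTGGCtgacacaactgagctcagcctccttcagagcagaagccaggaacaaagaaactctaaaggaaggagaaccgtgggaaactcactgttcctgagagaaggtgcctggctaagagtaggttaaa
Cyp4f14: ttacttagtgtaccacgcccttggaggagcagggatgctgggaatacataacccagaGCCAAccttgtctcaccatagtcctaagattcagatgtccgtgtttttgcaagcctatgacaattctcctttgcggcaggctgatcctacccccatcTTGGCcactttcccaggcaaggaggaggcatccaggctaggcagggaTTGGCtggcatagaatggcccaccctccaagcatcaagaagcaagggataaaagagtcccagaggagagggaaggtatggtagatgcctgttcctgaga
Cyp4f13: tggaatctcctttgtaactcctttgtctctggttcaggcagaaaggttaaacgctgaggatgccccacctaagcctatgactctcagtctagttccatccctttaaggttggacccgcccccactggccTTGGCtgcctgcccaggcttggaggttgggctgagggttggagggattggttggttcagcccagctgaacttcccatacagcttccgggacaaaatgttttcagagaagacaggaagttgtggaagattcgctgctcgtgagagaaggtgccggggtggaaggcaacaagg
Cyp4f16: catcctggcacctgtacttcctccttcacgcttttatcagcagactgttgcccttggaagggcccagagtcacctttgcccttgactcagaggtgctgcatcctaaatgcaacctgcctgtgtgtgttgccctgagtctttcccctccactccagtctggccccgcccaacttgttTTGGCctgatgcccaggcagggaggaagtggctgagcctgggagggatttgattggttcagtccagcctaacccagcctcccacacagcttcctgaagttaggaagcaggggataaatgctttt
Cyp4f37: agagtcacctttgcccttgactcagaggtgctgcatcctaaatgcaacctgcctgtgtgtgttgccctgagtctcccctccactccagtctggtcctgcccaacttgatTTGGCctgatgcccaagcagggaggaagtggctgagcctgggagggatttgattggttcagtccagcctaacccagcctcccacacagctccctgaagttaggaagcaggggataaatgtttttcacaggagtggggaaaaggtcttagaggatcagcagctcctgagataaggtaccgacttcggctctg

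The TTGGC letters occur 2 times in the Cyp4f15 window, 3 times in that of Cyp4f14 and 1 time each in those of Cyp4f13, Cyp4f16 and Cyp4f37, so genes that were higher in adults and genes that did not pass both hold them. RefSeq promoter windows were matched for 26 of the 33 members. Of these, 19 hold TTGGC, or 73.1%, against 47.0% of 27025 genes with a window of the same length. Only the first listed window of each gene was searched, and a later Cyp4f14 window, at chr17:32917038-32917337, holds 0 TTGGC. Windows of related genes can share long stretches, as those of Cyp4f16 and Cyp4f37 do, so the members are not independent. The whole palindromic site of nuclear factor I, TTGGC and its reverse complement GCCAA around a spacer, is in 0 of the 26 and in 0.0407% of all. GCGTG, the core letters bound by the aryl hydrocarbon receptor, is in 10 of them, or 38.5%, against 32.5%, and the letters AGGTCA, bound by nuclear receptors, are in 4, or 15.4%, against 16.0%. Both strands were searched, and TTGGC also counts where it lies within the palindromic site. A match describes the letters only, and no binding was measured.

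**Figure D2:**
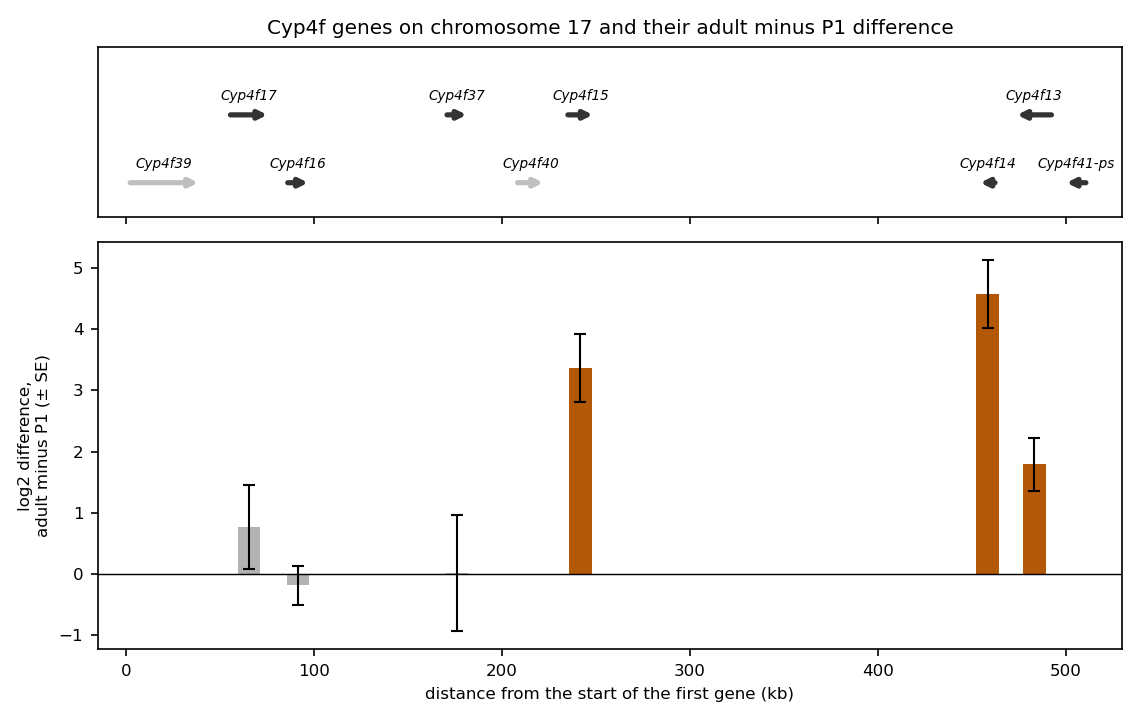
Cyp4f genes along chromosome 17 (upper panel, arrows show strand, grey genes are not in the table) and their adult minus P1 difference on the log2 scale ± approximate SE (lower panel), both against distance from the start of the first gene in kb. The SE was back-calculated from the test's F statistic. Orange bars, which passed at an adjusted p of 0.05, belong to Cyp4f15, Cyp4f14 and Cyp4f13, at 3.36, 4.57 and 1.79, and grey bars did not pass.

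Among the 5 measured genes of the Cyp2j and Cyp2c subfamilies, which include epoxygenases of arachidonic acid, 3 were higher in adults. Cyp2j6 had a median of 4.78 CPM at P1 (0 to 11.1), 9.06 CPM at P4 (4.17 to 14.0), 6.93 CPM at P7 (1.73 to 15.9), 11.4 CPM at P14 (3.12 to 20.9), 11.5 CPM at P35 (8.98 to 27.8) and 18.4 CPM in adults (4.70 to 30.9). It averaged 18.9 ± 8.96 CPM in adults and 5.55 ± 3.53 CPM at P1, a difference of 1.77 ± 0.38 on the log2 scale (adjusted p = 0.000208). Cyp2j12 was near the detection limit in pups, with a median of 0 CPM at P1 (0 to 0.271), 0 at P4 in every library, 0 CPM at P7 (0 to 1.06), 0.291 CPM at P14 (0 to 1.71), 1.04 CPM at P35 (0.337 to 5.33) and 1.84 CPM in adults (1.03 to 6.10). No P4 library had a count of Cyp2j12, and 3 counts over all P4 libraries would be a level of 0.0150 CPM. Its 9 adult libraries held 539 counts and its 8 P1 libraries 12 counts, with no overlap between the ages, and the fitted difference was 6.55 ± 1.40 on the log2 scale (adjusted p = 0.000293). The highest adult library was adult male 60, at 6.10 CPM.

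Cyp2c44, an arachidonic acid epoxygenase, stayed under 1 CPM on average at every age, with 0.895 ± 1.21 CPM in adults and 0.0422 ± 0.0951 CPM at P1. It had 208 counts over the adult libraries, 112 of them in adult male 60, and 8 counts over the P1 libraries, in 2 of 8. Its fitted difference was 5.81 ± 1.27 on the log2 scale (adjusted p = 0.000335). Cyp2j9, an arachidonic acid hydroxylase known from mouse brain, averaged 17.5 ± 8.73 CPM in adults and 10.9 ± 18.2 CPM at P1 and did not pass, with a difference of 0.99 ± 0.49 (adjusted p = 0.101). Its P1 mean rests on P1 female 4, at 55.4 CPM against at most 10.5 CPM in the other P1 libraries, and without that library the difference was 2.01 with an adjusted p of 0.000205. Cyp2j13 stayed under 1 CPM at every age, with a difference of -1.12 ± 1.50 between adults and P1 (adjusted p = 0.581), although it passed over the 6 ages (adjusted p = 0.0463) with 141 counts in all. That call was lost in 6 of 13 alternatives, DESeq2 among them. Another of the 6, the filter at 1 CPM in at least 3 libraries, removed Cyp2j13, so there it was not tested.

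Cyp2d22, a member of the subfamily that metabolises many drugs, had a median of 0.508 CPM at P1 (0 to 4.29), 1.29 CPM at P4 (0.867 to 3.49), 1.87 CPM at P7 (0 to 4.47), 9.83 CPM at P14 (0.862 to 25.4), 16.8 CPM at P35 (3.59 to 58.7) and 31.1 CPM in adults (6.46 to 52.7). Every adult library lay above every P1 library. The mean was 27.5 ± 14.2 CPM in adults and 1.16 ± 1.57 CPM at P1, and the difference was 5.20 ± 0.73 on the log2 scale (adjusted p = 1.99e-07). Cyp2u1, a fatty acid hydroxylase known from brain, had a median of 3.69 CPM at P1 (1.76 to 25.3), 3.66 CPM at P4 (2.72 to 5.58), 3.44 CPM at P7 (1.88 to 10.8), 6.03 CPM at P14 (1.77 to 9.71), 7.18 CPM at P35 (4.94 to 14.2) and 6.57 CPM in adults (3.18 to 9.86). It passed over the 6 ages (adjusted p = 0.0355), a call that was lost in 5 of 13 alternatives, one of them the model without the replicate set. It did not pass between adults and P1, at 0.33 ± 0.31 (adjusted p = 0.412). Without P1 female 4, which read 25.3 CPM, that difference was 0.80 with an adjusted p of 0.0103.

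Of the other Cyp2 genes, Cyp2f2, known as a lung enzyme, passed on few counts, 46 over the adult libraries and 9 over the P1 libraries. Its difference was 3.35 ± 1.36 on the log2 scale (adjusted p = 0.0454), and it did not pass over the 6 ages (adjusted p = 0.0501) nor after leaving out any of 19 single libraries, with an adjusted p of up to 0.115. Cyp2s1 averaged 0.909 ± 0.703 CPM in adults and 1.16 ± 1.05 CPM at P1, with a difference of -0.27 ± 0.59 (adjusted p = 0.744). Cyp2a5 and Cyp2b19, enzymes known from liver and from skin, stayed under 1 CPM and did not pass, at -0.13 ± 3.28 and -0.50 ± 0.88. Cyp2a5 shares 37.0% of its stretches of 50 bases with other genes and is uncertain.

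The 3 sterol enzymes moved in both directions. Cyp39a1, a hydroxylase of the brain oxysterol that carries cholesterol out of neurons, was lower in adults, with a median of 11.2 CPM at P1 (3.52 to 25.3), 14.6 CPM at P4 (4.85 to 25.3), 5.06 CPM at P7 (1.39 to 17.9), 3.14 CPM at P14 (0.669 to 8.87), 3.63 CPM at P35 (2.30 to 4.34) and 4.73 CPM in adults (1.59 to 6.40). It averaged 4.37 ± 1.55 CPM in adults and 12.2 ± 8.26 CPM at P1, a difference of -1.34 ± 0.35 on the log2 scale (adjusted p = 0.00216), and its P1 and P4 libraries spread over a wide range that reached down into the adult one. Cyp7b1, the oxysterol and neurosteroid hydroxylase, was higher in adults, with a median of 2.05 CPM at P1 (0.281 to 5.38), 3.87 CPM at P4 (0.834 to 4.91), 3.44 CPM at P7 (1.20 to 5.76), 6.10 CPM at P14 (1.34 to 13.3), 5.67 CPM at P35 (4.17 to 11.1) and 7.35 CPM in adults (3.67 to 11.1). Its difference was 1.46 ± 0.33 (adjusted p = 0.000463), and the groups overlapped. Cyp27a1, the mitochondrial sterol hydroxylase of bile acid synthesis, averaged 1.33 ± 0.781 CPM in adults and 0.238 ± 0.209 CPM at P1, and its difference of 2.42 ± 0.90 passed narrowly (adjusted p = 0.0275). It did not pass over the 6 ages (adjusted p = 0.157), nor between adults and P1 without adult male 4, P1 male 1, P1 male 2, P1 female 3 or P1 female 4, with an adjusted p of up to 0.0735.

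Cyp11a1, the mitochondrial enzyme that turns cholesterol into pregnenolone, the first step of steroid synthesis, had a median of 0.494 CPM at P1 (0 to 0.622), 0.700 CPM at P4 (0 to 1.96), 2.19 CPM at P7 (0 to 6.02), 2.99 CPM at P14 (1.47 to 6.35), 1.99 CPM at P35 (0.348 to 3.90) and 2.62 CPM in adults (0.315 to 3.39), highest at P14. It averaged 2.20 ± 1.00 CPM in adults and 0.405 ± 0.212 CPM at P1, a difference of 2.41 ± 0.64 on the log2 scale (adjusted p = 0.00212). Adult female 2, at 0.315 CPM, lay within the P1 libraries and every other adult library above them. Cyp11a1 overlaps 145 exon bases of Gm17322 on the same strand. Aromatase, Cyp19a1, which makes estrogens, stayed under 1 CPM, with 114 counts over all 53 libraries and 0 counts at P35, where 3 counts would be 0.0214 CPM, and its difference was 1.00 ± 1.53 (adjusted p = 0.635). That direction is opposite to its means, which were 0.0833 ± 0.161 CPM in adults and 0.109 ± 0.209 CPM at P1.

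Of the 2 retinoic acid hydroxylases, Cyp26b1 was lower in adults, with a median of 6.14 CPM at P1 (1.63 to 50.6), 5.34 CPM at P4 (1.29 to 12.2), 8.97 CPM at P7 (0 to 26.5), 4.56 CPM at P14 (1.79 to 10.3), 2.81 CPM at P35 (1.73 to 5.30) and 1.76 CPM in adults (0.443 to 3.95). It averaged 1.84 ± 1.33 CPM in adults and 11.0 ± 16.4 CPM at P1, a difference of -2.02 ± 0.56 on the log2 scale (adjusted p = 0.00330). P1 female 4 was far above the other P1 libraries, which averaged 5.39 ± 3.98 CPM (SD, n = 7). Without it the difference was -1.16 with an adjusted p of 0.0478, the weakest value of any library left out. Cyp26a1 stayed under 1 CPM and did not pass, at -0.85 ± 1.02 (adjusted p = 0.539). The vitamin D enzymes Cyp2r1 and Cyp27b1, which make the hormone's circulating and active forms, also stayed under 1 CPM, with differences of -0.40 ± 1.19 and -0.47 ± 1.45 and adjusted p values of 0.816 and 0.827.

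Cyp1b1 and Cyp1a1 are textbook targets of the aryl hydrocarbon receptor. Cyp1b1 was lower in adults, with a median of 3.76 CPM at P1 (2.14 to 6.03), 4.07 CPM at P4 (2.00 to 14.8), 6.33 CPM at P7 (2.61 to 12.9), 2.06 CPM at P14 (1.28 to 7.12), 2.87 CPM at P35 (0.0580 to 5.94) and 1.58 CPM in adults (0.139 to 3.67), highest at P7. It averaged 1.61 ± 1.31 CPM in adults and 3.68 ± 1.19 CPM at P1, a difference of -1.42 ± 0.42 on the log2 scale (adjusted p = 0.00630), and in the model without the replicate set it was -1.16 with an adjusted p of 0.0791. Cyp1a1 stayed under 1 CPM on average, with 0.189 ± 0.250 CPM in adults and 0.283 ± 0.482 CPM at P1. Its fitted difference was 0.76 on the log2 scale, opposite in direction to these means, and did not pass (adjusted p = 0.675).

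Of the remaining Cyp4 genes, Cyp4x1, an enzyme known to be abundant in brain, averaged 4.35 ± 3.54 CPM in adults and 2.36 ± 2.39 CPM at P1 and passed narrowly at 1.27 ± 0.52 on the log2 scale (adjusted p = 0.0466). The call was lost when any of 32 single libraries was left out, with an adjusted p of up to 0.134. Its antisense transcript Cyp4x1os averaged 0.691 ± 0.663 CPM in adults and 0.184 ± 0.187 CPM at P1, at 2.41 ± 1.09 (adjusted p = 0.0724). The libraries mark strand per the labels, but the strand setting of the counting is not given in the sources used here, so reads of this pair may not be separated. The same limit holds for Cyp2u1, Cyp2f2 and Cyp2s1, which overlap 548, 274 and 260 exon bases of genes on the opposite strand. Cyp4b1 averaged 0.701 ± 0.313 CPM in adults and 0.237 ± 0.196 CPM at P1 and did not pass, at 1.65 ± 0.78 (adjusted p = 0.0876). Cyp4v3, a fatty acid hydroxylase, averaged 4.34 ± 2.22 CPM in adults and 6.28 ± 13.1 CPM at P1, at -0.04 ± 0.73 (adjusted p = 0.978). P1 female 4 read 38.7 CPM of Cyp4v3, against at most 2.99 CPM in the other P1 libraries, and without it the difference was 1.21 (adjusted p = 0.165). Cyp4v3 overlaps 313 exon bases of Gm45753 on the same strand. Cyp20a1, a P450 with no settled substrate, averaged 10.1 ± 5.00 CPM in adults and 15.5 ± 6.49 CPM at P1, at -0.75 ± 0.41 (adjusted p = 0.147). Without P1 female 4, P7 female 40 and P14 male 4, the 3 libraries with the fewest genes detected, it passed as lower in adults, at -0.95 (adjusted p = 0.00443), and without P7 female 40 alone it passed at -0.76 (adjusted p = 0.0403).

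**Figure D3:**
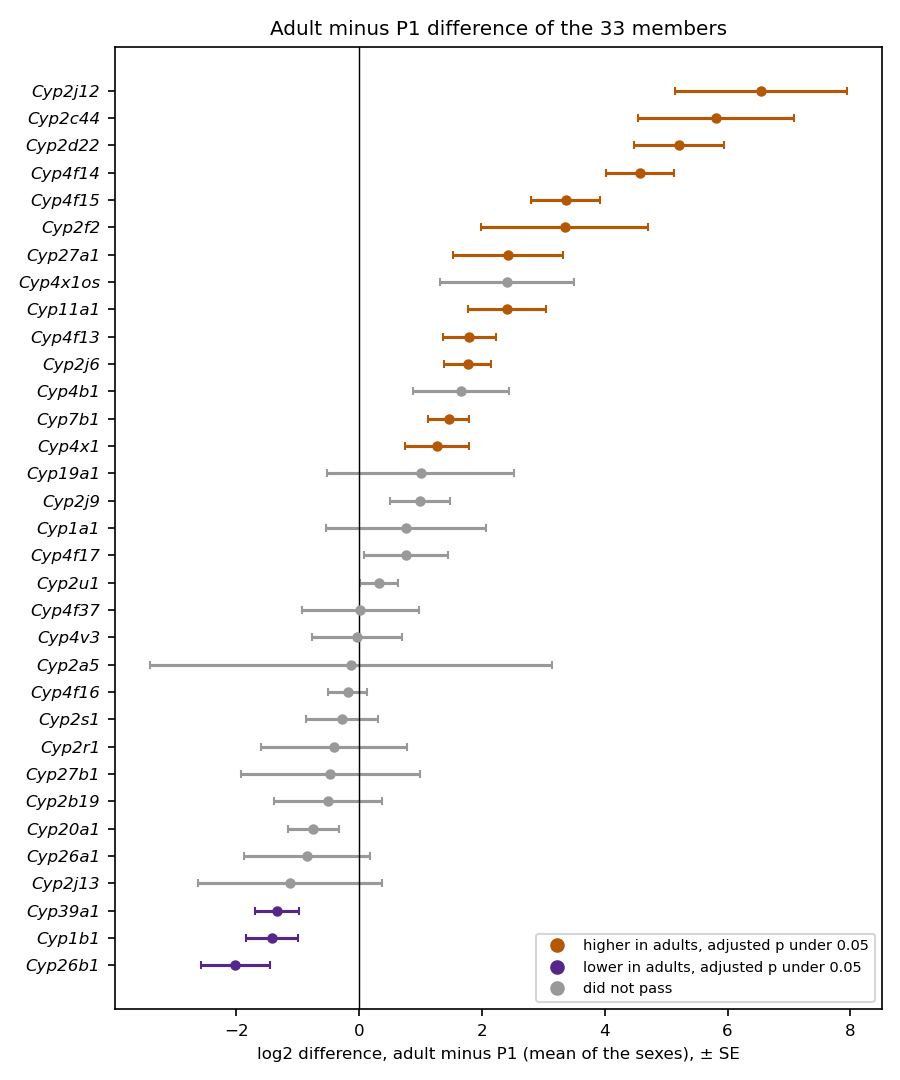
Adult minus P1 difference of each of the 33 members on the log2 scale (horizontal axis, mean of both sexes), with bars of 1 approximate SE. The SE was back-calculated from the test's F statistic and is unstable where F is near 0. Orange points (12, higher in adults) and purple points (3, lower in adults) passed at an adjusted p of 0.05, and grey points did not.

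Levels of different genes were compared per kilobase of exon. In adults the highest mean levels were those of Cyp2d22 at 7.03, Cyp4f14 at 6.99, Cyp4f15 at 6.21, Cyp2j6 at 5.25, Cyp2j9 at 5.24 and Cyp20a1 at 4.41 CPM per kb. Differences in level between these genes were not tested, so their order is a description only. At P1 the order was led by Cyp20a1 at 6.79, Cyp39a1 at 4.00, Cyp2j9 at 3.27, Cyp4f16 at 3.00 and Cyp26b1 at 2.06 CPM per kb, where the values of Cyp2j9 and Cyp26b1 rest on P1 female 4. Cyp2d22 and Cyp4f14, which led in adults, stood at 0.298 and 0.376 CPM per kb at P1. The members' summed level per library had a median of 84.5 CPM at P1 (56.7 to 182), 92.1 at P4 (61.3 to 126), 79.9 at P7 (65.0 to 139), 141 at P14 (69.2 to 176), 141 at P35 (73.7 to 280) and 171 in adults (76.4 to 269). The ranges overlapped at every age, and the highest P1 sum was that of P1 female 4. In RNA pulled down from whole cortex, fewer cells and less RNA per cell cannot be told apart.

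**Figure D4:**
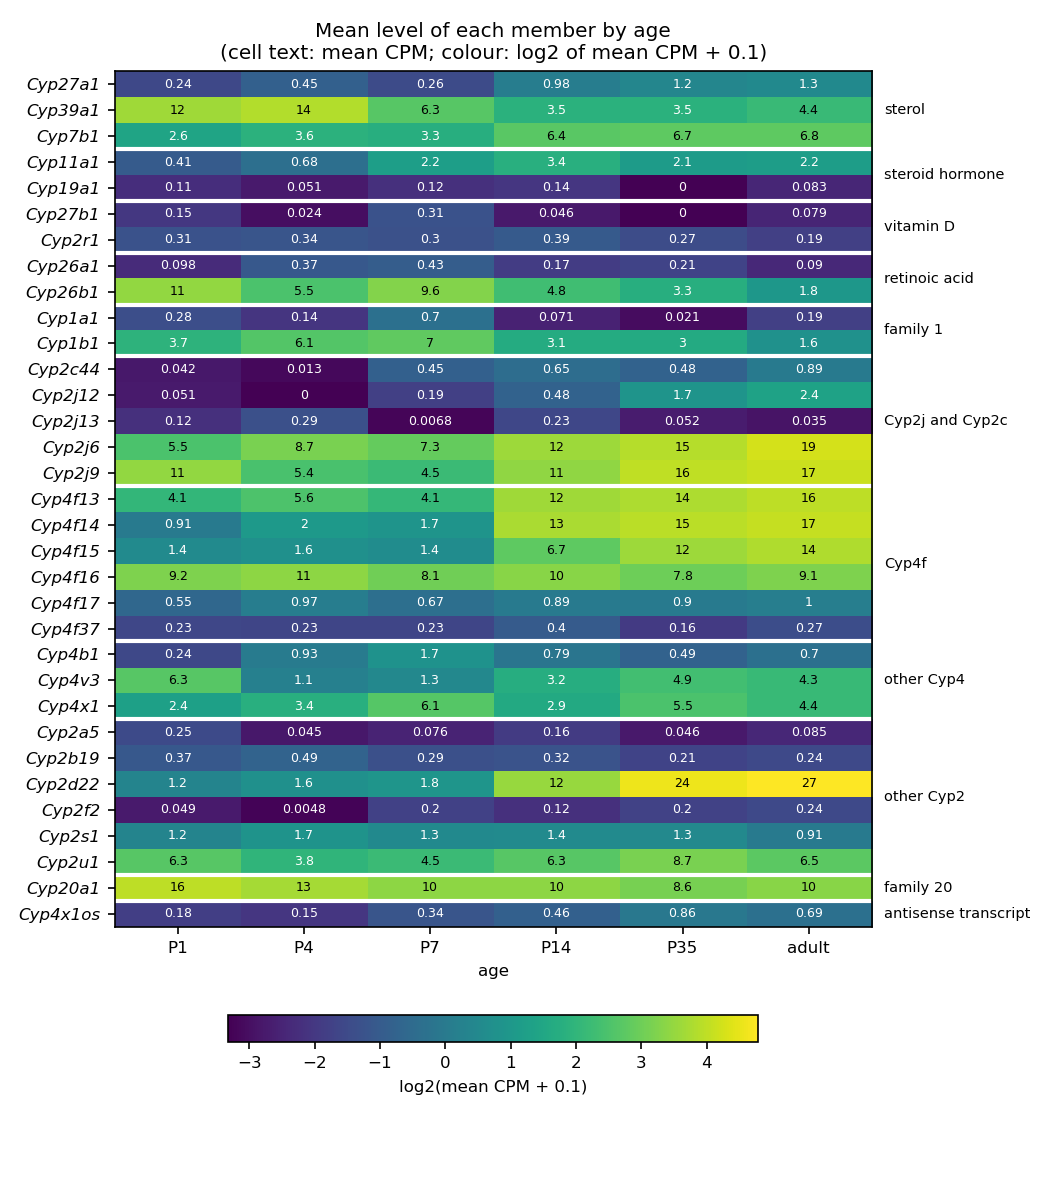
Mean level of each of the 33 members (rows, grouped by role) at each age (columns), with the mean TMM-scaled CPM printed in each cell and colour showing log2 of the mean plus 0.1. The Cyp4f13, Cyp4f14, Cyp4f15 and Cyp2d22 rows brighten at P14, and most of the 12 members under 1 CPM stay dark at every age. The means are not adjusted for replicate set.

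Between neighbouring ages no single step carried a member past the threshold. With edgeR's quasi-likelihood test, 0 members were called in P4 minus P1, P7 minus P4, P14 minus P7, P35 minus P14 and adult minus P35, where 0.44%, 1.67%, 3.3%, 1.15% and 0% of all genes were called. At an unadjusted p under 0.05 there were 4, 7, 7, 1 and 2 members in these 5 steps, and over all steps limma voom made 5 calls and DESeq2 13, of which those of Cyp27b1, Cyp2j12 and Cyp19a1 recurred in more than one step. The smallest adjusted p was in P14 minus P7. There Cyp4f13 differed by 1.29 ± 0.43 on the log2 scale (adjusted p = 0.0869), Cyp1b1 by -1.20 ± 0.41 (adjusted p = 0.0973), Cyp39a1 by -0.98 ± 0.35 (adjusted p = 0.114), Cyp4f14 by 1.70 ± 0.63 (adjusted p = 0.124) and Cyp2d22 by 1.78 ± 0.66 (adjusted p = 0.124). Without the 4 S animals, all at P7, the Cyp4f14 step passed at 2.34 (adjusted p = 0.00742).

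Members also differed between the replicate sets. Over the 6 sets 16 of 33 members differed, or 48.5%, against 69.1% of all genes. In set 6 against set 1, 16 members differed, where 34.3% of all genes did. Of these, 3 were higher and 13 lower, or 9.09% and 39.4% of the members, against 17.2% and 17.1% of all genes. In set 3 against set 1, where 53% of all genes differed, 4 members were higher and 12 lower, or 12.1% and 36.4%, against 28.2% and 24.8%. In set S against set 1, where 32.6% of all genes differed, 1 member was higher and 8 were lower, against 14.3% and 18.3%. In set 4 against set 1, where 17.9% did, 0 were higher and 5 lower, against 9.56% and 8.3%. Set 2 against set 1 gave 0 members and 0 genes by edgeR, with 2 members and 1126 genes at an unadjusted p under 0.05.

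Genes that were higher in adults were among those lower in sets 3, 6 and S. Cyp4f14 was -3.76 ± 0.56 in set 6 minus set 1 on the log2 scale (adjusted p = 8.19e-07), -4.15 ± 0.94 in set S minus set 1 (adjusted p = 0.000699) and -2.30 ± 0.43 in set 3 minus set 1 (adjusted p = 2.29e-05). Cyp4f15, Cyp4f13, Cyp2d22, Cyp2j6 and Cyp7b1 were also lower in all of these sets. So were Cyp2j9 and Cyp4f16, which did not pass between adults and P1. Cyp39a1 and Cyp1b1, which were lower in adults, were lower in sets 3, 4 and 6 too. In the other direction, Cyp4x1 was higher by 2.12, 1.46 and 2.03 in sets 3, 6 and S minus set 1, Cyp26b1 by 1.44 in set 3, and, at low levels, Cyp26a1 by 2.93 and 5.23 in sets 3 and 6, Cyp27b1 by 3.85 in set 3 and Cyp2c44 by 3.67 in set 6.

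**Figure D5:**
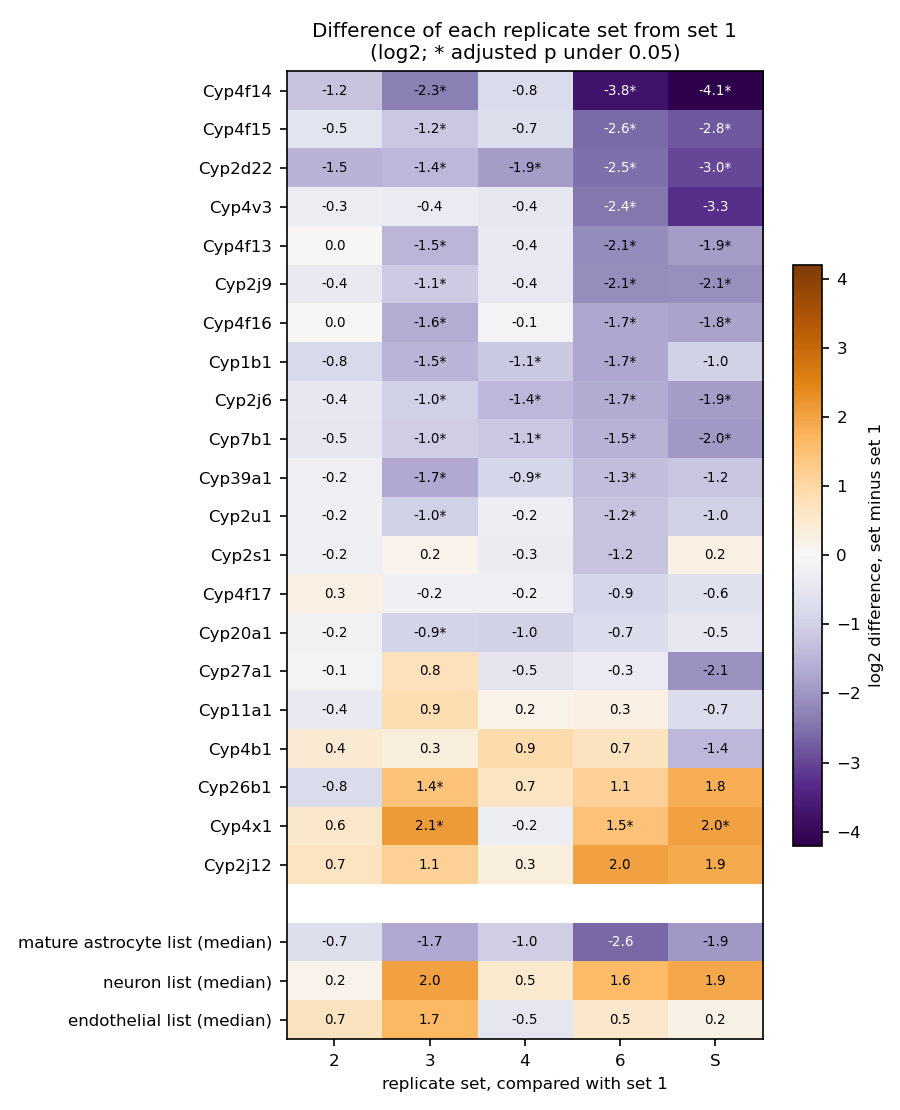
Difference of replicate sets 2, 3, 4, 6 and S from set 1 (columns) on the log2 scale for the 21 members that reached 1 CPM at some age, with an asterisk at an adjusted p under 0.05 and the medians of 3 marker lists underneath. The median of the mature astrocyte list was negative in every set shown. The neuronal median was positive in every set shown, and the endothelial median in all but set 4. The part of cell types in the members' differences was not tested.

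Markers of cell types moved with both age and set. Between adults and P1, 19 of 20 mature astrocyte genes were higher, with a list median of 2.29 on the log2 scale, and the list summed to 4499 to 27739 CPM (median 19154) in adults and 786 to 6115 CPM (median 1755) at P1. In sets 6 and 3, 20 of these 20 genes were lower than in set 1, with medians of -2.64 and -1.68, and in set S 17 were lower, with a median of -1.94. The list summed to 786 to 4549 CPM in set 6, 1148 to 14051 CPM in set 3 and 4734 to 24890 CPM in set 1. Of 18 neuronal genes, 17, 18 and 16 were higher in sets 6, 3 and S than in set 1, with sums of 8395 to 13079, 5070 to 10680 and 7179 to 13146 CPM, against 1790 to 3810 CPM in set 1. Their part in the P450 differences was not tested. The replicate set is a term of the model, and without it 12 members rather than 15 differed between adults and P1.

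Genes of other cell types were also compared between adults and P1, where 21.8% of all genes were higher and 19.5% lower. All 12 oligodendrocyte and myelin genes were higher, summing to 826 to 2471 CPM in adults and 114 to 294 CPM at P1. Of 18 neuronal genes 9 were higher and 7 lower, and of 14 microglial genes 4 were higher, with sums of 37.4 to 112 CPM in adults and 21.9 to 126 CPM at P1. Endothelial genes, a known site of P450 expression, numbered 4 higher and 1 lower of 14, with sums of 49.4 to 188 CPM in adults and 27.0 to 88.8 CPM at P1. Mural genes numbered 1 higher and 2 lower of 11, fibroblast and meningeal genes 0 higher and 2 lower of 12, choroid plexus and ependymal genes 2 higher and 3 lower of 10, and oligodendrocyte progenitor genes 2 higher and 2 lower of 8. Of radial glia and progenitor genes 3 were higher and 8 lower of 14, and all 10 cell cycle genes were lower. None of the 13 mitochondrially encoded genes nor of the 6 erythroid genes passed with edgeR. No marker of these lists was at 0 in all libraries of P1 or of adults, and their part in the P450 differences was not tested.

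Between the sexes, 0 members differed in the mean over ages with edgeR's quasi-likelihood test, where 0.0284% of all genes were called. One member had an unadjusted p under 0.05, Cyp2c44, at -1.94 ± 0.65 in female minus male on the log2 scale (p = 0.005 in the model fitted by edgeR, adjusted p = 1). DESeq2 called 1 member, Cyp2j12, at -3.24 (adjusted p = 0.00258), a gene with 951 counts in all and 0 at P4, and limma voom called 0. The differences of all members in edgeR lay between -1.94 and 0.35. Within single ages and in the sex by age term 0 members and 0 genes were called by edgeR, with 2 members at an unadjusted p under 0.05 in the sex by age term, Cyp2u1 and Cyp2a5. At P1, where 7 members had an unadjusted p under 0.05, the female higher ones were Cyp2u1, Cyp4v3, Cyp2j9 and Cyp26b1, the 4 genes that were high in P1 female 4.

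Genes that work with P450s were followed in lists chosen for their role. Between adults and P1, 21.8% of all genes were higher and 19.5% lower, the shares to set beside each of these lists. Of 22 genes of electron transfer and heme metabolism, 10 were higher and 2 lower in adults than at P1, with a list median of 0.44 on the log2 scale. P450 oxidoreductase, Por, was not among them, at 20.5 ± 7.58 CPM in adults and 22.1 ± 11.6 CPM at P1 (SD, n = 9 and 8; adjusted p = 1 by edgeR). The heme synthesis genes Urod and Cpox rose by 1.00 and 1.12 on the log2 scale (adjusted p = 7.73e-08 and 3.76e-05 by edgeR), and so did the ferredoxin Fdx1, which serves mitochondrial P450s, by 1.13 (adjusted p = 6.10e-05). The reductase Cyb5r3 fell by 0.93 (adjusted p = 2.81e-05).

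Of 16 measured genes of epoxide hydrolysis and oxylipin synthesis, out of 17 listed, 10 were higher and 1 lower in adults, with a median of 2.01 on the log2 scale. Ephx2, the soluble hydrolase of the fatty acid epoxides that P450 epoxygenases make, averaged 70.4 ± 30.8 CPM in adults and 6.27 ± 5.42 CPM at P1 and rose by 3.56 (adjusted p = 5.55e-10 by edgeR). Ephx4, Ptgs1 and Ephx1 rose by 2.79, 3.70 and 2.13. Of 13 measured genes of retinoic acid synthesis and binding, out of 14 listed, 4 were higher and 2 lower. Aldh1a1, which makes retinoic acid, averaged 458 ± 254 CPM in adults and 11.1 ± 14.2 CPM at P1 and rose by 5.57 (adjusted p = 4.45e-11 by edgeR), and Rdh14 by 0.87. Aldh1a3 and the binding protein Crabp1 fell by 3.90 and 4.35. The P1 libraries spread widely for Aldh1a3, which averaged 0.689 ± 0.537 CPM in adults and 15.0 ± 27.9 CPM at P1. How far its fall rests on single libraries was not tested.

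Of 23 measured nuclear receptors and genes of the aryl hydrocarbon receptor pathway, out of 27 listed, 10 were higher and 2 lower in adults, with a median of 0.72 on the log2 scale. The oxysterol receptor Nr1h3 and Pparg, a receptor of fatty acids, rose by 2.44 and 4.45 on the log2 scale. The aryl hydrocarbon receptor itself, Ahr, did not pass, at 5.57 ± 3.80 CPM in adults and 4.61 ± 3.54 CPM at P1 (adjusted p = 0.571 by edgeR). Of 15 measured steroid and oxysterol partners, out of 22 listed, 4 were higher and 0 lower, namely Hsd11b1, Tspo, Npc1 and Sult2b1 at 4.32, 1.44, 1.48 and 1.45. Of 21 measured conjugating enzymes of phase II drug metabolism, out of 23 listed, 13 were higher and 1 lower, and the glutathione transferases Gstm1, Gstm3 and Gstm5 rose by 2.66, 2.58 and 2.57 and the sulfotransferase Sult4a1 by 1.55.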

How the data were processed

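Whole-number gene counts, not normalized, were made by the authors with CASAVA, HISAT2, SAMtools and featureCounts on GRCm38.p5, per the submitters' processing notes. No version, annotation release or strand setting is named in the sources used here. Counts were scaled by TMM and tested with edgeR 4.0.16 (R 4.3.3) in a quasi-likelihood model with robust fitting, of 12 groups of sex and age plus the replicate set, with Benjamini-Hochberg adjustment over 21118 genes at 0.05. The filter on low counts removed 0 genes. CPM are TMM-scaled. The SE of each log2 difference is approximate and was not taken from the fit. It is the absolute difference divided by the square root of the quasi-likelihood F statistic. It is unstable where F is near 0, as for Cyp2a5 in adult minus P1, at -0.13 ± 3.28. Exon lengths and positions are from GENCODE on GRCm38, and promoters from RefSeq. Alternatives used limma 3.58.1, DESeq2 1.42.0, other filters and fewer libraries, and fits that left out 1 library kept the dispersion trend of all libraries. The code was tested on simulated data. Members averaging 1 CPM at some age are named with values, the 12 with the smallest p over the ages in full, and members under 1 CPM by range or where they passed. Of each partner list, the 4 genes with the smallest adjusted p are named, except where a gene is not reported here. Por, Ahr and the genes describing P1 female 4 were chosen after their values were seen. The members and lists were chosen with earlier results of these data known. Libraries are from separate animals per the labels, and p-values measure the spread between them. Counts limit precision, and counting limits cover counting error only.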

Additional observations from a re-analysis of the deposited data

Results flagged for a closer look

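In groups of 6 to 10 libraries at 5 ages, the 12 members with the smallest p over the ages were searched for a single library far from the others, and 6 of 60 groups held one. Chance gives about 1 in 20 for independent, normally distributed values, a rate that cannot be applied here, because the members share libraries and some groups read mostly 0. Cyp26b1 in P1 female 4 read 50.6 CPM, against 10.0 CPM in the next P1 library. Cyp2u1 in the same library read 25.3 CPM, against 5.90 CPM. Cyp2d22 in P4 male 1 read 3.49 CPM, against 1.72 CPM in the next P4 library. Cyp2j12 in P1 male 1 read 0.271 CPM, from 8 counts, against 0.101 CPM. Cyp2j12 in P35 female 6 read 5.33 CPM, against 2.10 CPM in the next P35 library. Cyp4f14 in P14 male 4 read 37.6 CPM, against 19.2 CPM in the next P14 library. P1 female 4 and P14 male 4 are among the 3 libraries with the fewest genes at 10 or more counts.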

How the results depend on the processing

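Of the 15 members called between adults and P1, 12 were called under each of 13 alternatives (12 planned, 1 chosen after seeing the data), which called 12 to 17 members there and 11 to 17 over the 6 ages. The alternative without a filter is the main model again, because the filter removed 0 genes, so it is no separate check. The exceptions were Cyp1b1, Cyp2f2 and Cyp4x1, and no change that was called reversed its direction under any of these or with a single library left out. Among the members named with values, the differences of Cyp4v3 and Cyp4f16, at -0.04 and -0.18 and not called, changed sign under some, to at most 1.32 and 0.06. Members called in addition were Cyp2j9 under 4 alternatives, Cyp2u1 and Cyp20a1 under the 2 without the 3 libraries with few genes, and Cyp4b1 and Cyp4x1os with DESeq2. Over the ages, the call was lost under 6 alternatives for Cyp2j13 (in 1 of them the filter removed it), 5 for Cyp2u1 and 4 for Cyp26b1. Leaving out each library in turn (53 fits) gave 12 to 16 members between adults and P1 (9 to 12 higher, 3 to 4 lower), 11 to 16 over the ages, 0 to 2 in the steps between neighbouring ages, and 0 for sex and for sex by age.

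In the steps, where there were 0 calls of members, the alternatives made 5 calls without the replicate block (Cyp4f13, Cyp4f14, Cyp4f15, Cyp2d22 and Cyp2j13 in P14 minus P7), 5 with limma voom and 13 with DESeq2. There were 3 without the 3 libraries with few genes, 1 without the S animals and 4 with sex not in the model. Leaving out 3 kinds of library together gave 1. These were the libraries with few genes, those against their sex label, and those of animals numbered 10, 30, 40 or 60. Of the DESeq2 calls, those of Cyp2j12, Cyp27b1 and Cyp19a1 involve ages with no count or few. The cause was not tested. For sex, DESeq2 called 1.

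The same set number in different groups does not pair animals by the labels. The median correlation of deviations was 0.46 over 223 pairs of the same set, with a lowest of -0.18 and 209 above 0.1, and -0.12 over 1060 other pairs, and 42 of 53 libraries correlated best with one of their own set. Without the replicate block 12 members and 5725 genes were called between adults and P1, against 15 members and 8718 genes with it, and 14 over the ages, with Cyp2j9 gained and Cyp2u1 lost. Cyp2f2, Cyp19a1 and Cyp27b1 rest on few counts, and the part of depth in their calls was not tested.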
